A study of Mus musculus with 6 samples.

Results

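The collagen genes of mouse liver were followed across libraries labelled WT and libraries labelled Mdr2 knockout. The members were all 42 genes, of 16603 in the deposited count table, whose symbol has the form of a collagen chain (Col, a number, the letter a and a number). Of the 42, 28 passed the filter on low counts and were tested, and 14 did not and are given by their counts. Bulk RNA of whole liver was sequenced in 6 libraries, 3 labelled WT and 3 labelled Mdr2 knockout, in a series on the ductular reaction and liver fibrosis. Mdr2 is a lipid pump of the hepatocyte membrane facing the bile, encoded by Abcb4, and its loss in mice is a common model of bile duct injury with scarring around the ducts. Nothing in the labels gives age, sex, strain, diet or the allele, or says that each library came from its own animal, so the p-values cover only the spread of these libraries, which may be partly technical.

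Collagens are proteins of the matrix between cells, each built from a trimer of chains wound into a triple helix. The fibrillar collagens form the tough fibres of scar tissue. The type IV collagens form the sheet of the basement membrane under epithelium and around vessels. Other classes are the network-forming type VIII, the beaded filaments of type VI, the anchoring fibrils of type VII, the FACIT collagens that sit on the surface of fibrils, the transmembrane collagens, and the multiplexins, whose helix is interrupted many times. In liver, stellate cells and portal fibroblasts are known as main sources of fibrillar collagen, and hepatocytes are known to make the multiplexin type XVIII.

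Library totals ran from 17100393 to 18124467 counts. Levels between genes are given as FPKM (reads scaled by gene length and library total), and differences between groups as CPM, counts per 1000000 counts of a library scaled by edgeR's TMM factors, with log2 fold changes of knockout-labelled over WT-labelled. Abcb4 itself was higher in the knockout-labelled libraries, with counts of 10071, 10188 and 8347 against 5190, 5776 and 4330 (edgeR log2 fold change 0.57, adjusted p = 0.00389, SE 0.12), so the groups are named by their labels throughout. The columns of the table carry letters, and the letter N was taken for WT by elimination, on which all directions below depend. The summed level of 8 hepatocyte markers was 117837 to 127572 CPM in the WT-labelled libraries and 72748 to 74025 CPM in the knockout-labelled libraries, and none of the 8 was at 0 in any group. The albumin gene Alb alone held 81231 to 89905 CPM and 48643 to 50337 CPM of these sums. In bulk RNA, more cells of a type and more RNA per cell cannot be told apart.

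Most tested collagen genes were higher in the knockout-labelled libraries, and the most abundant one was lower. Of the 28 tested members, 19 were higher at an edgeR adjusted p under 0.05, against 20.9% of all 12612 tested genes, and 1 was lower, against 16.3%. At least 2-fold higher were 17 members, against 11.1% of all tested genes. Col4a2 and Col5a3, also higher, were just under 2-fold, at log2 fold changes of 0.995 and 0.997. The 3 knockout-labelled libraries lay wholly above the 3 WT-labelled libraries for 20 members, against 27.6% of all tested genes, and wholly below for 1, against 23.7%. The median log2 fold change was 1.69 over the tested members and 0.01 over all tested genes. The remaining 8 tested members did not pass.

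**Figure D1:**
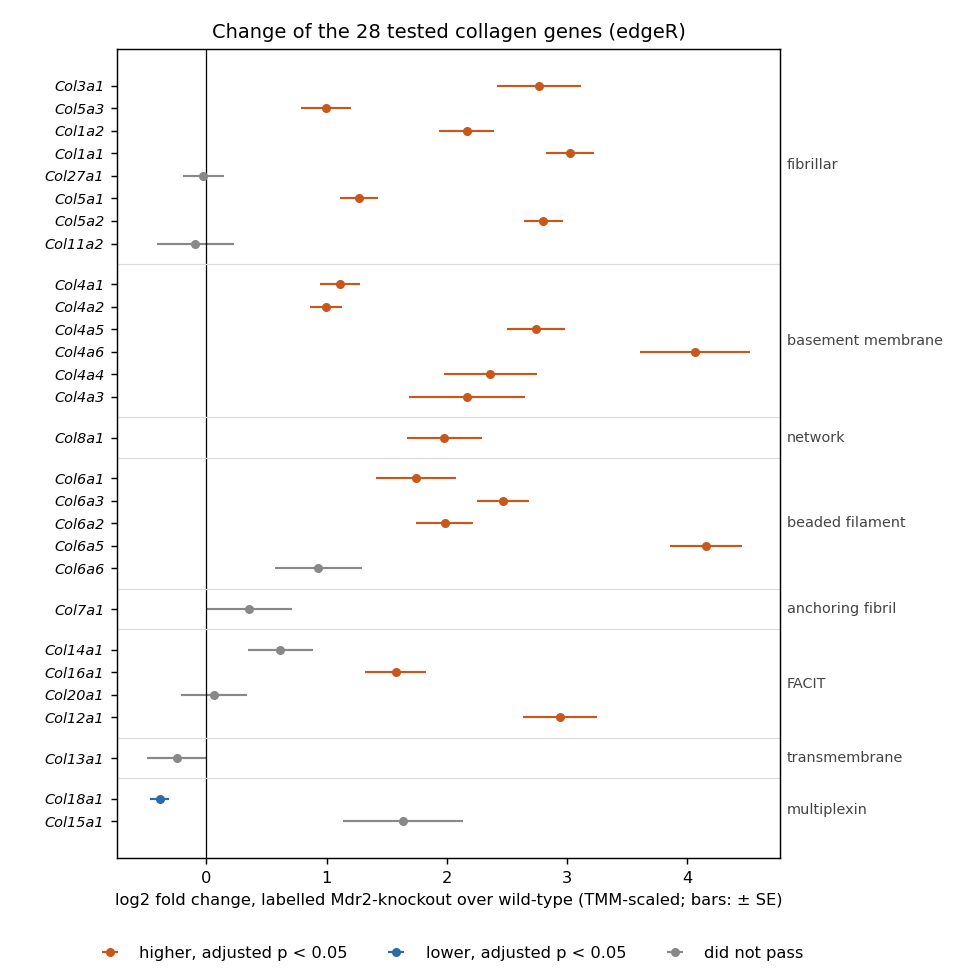
Log2 fold change (knockout-labelled over WT-labelled, TMM scaling) of the 28 tested collagen genes, grouped by class, with points for the edgeR estimate and bars for ± SE, 3 libraries a group. All 6 basement membrane genes and 6 of 8 fibrillar genes are higher, from 1.00 to 4.06 in the first class, and Col18a1 is the single lower gene at -0.39.

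By class, 6 of 8 tested fibrillar members were higher, 6 of 6 basement membrane members, 1 of 1 network member, 4 of 5 beaded filament members and 2 of 4 FACIT members. Neither the anchoring fibril gene Col7a1 nor the only tested transmembrane gene, Col13a1, passed, and of the 2 multiplexins 1 was lower and 1 did not pass. The median log2 fold change was 1.72 over the tested fibrillar genes, 2.27 over the basement membrane genes, 1.98 over the beaded filament genes and 1.10 over the FACIT genes. These medians describe the classes and were not tested against each other. Each class held at most 8 tested genes, and values ran from -0.09 to 3.03 among the fibrillar genes and from 0.93 to 4.16 among the beaded filament genes. Of the higher members, Col4a3, Col4a4, Col4a6, Col6a5, Col8a1 and Col12a1 had fewer than 10 counts in at least 1 WT-labelled library. They passed the filter on low counts through the knockout-labelled libraries, so they could hardly be called anything but higher. Their calls stand in the class counts above and in the counts over all members, and their values in the class medians and the median over all members. None of them is fibrillar. The basement membrane genes outside this set, Col4a1, Col4a2 and Col4a5, had log2 fold changes of 1.11, 1.00 and 2.74. Of these, Col4a1 and Col4a2 lie below the fibrillar median of 1.72.

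Type I collagen, the main protein of scar fibres, is made of chains from Col1a1 and Col1a2. Col1a1 lay at 7.18, 5.36 and 9.91 CPM in WT-labelled replicates 1 to 3 and at 66.9, 54.1 and 62.1 CPM in knockout-labelled replicates 1 to 3. Col1a2 lay at 10.998, 10.6 and 17.9 CPM against 65.6, 48.9 and 62.7 CPM. Both genes were higher in each knockout-labelled library than in any WT-labelled library. The edgeR log2 fold change was 3.03 (adjusted p = 7.42e-05, SE 0.20, n = 3 per group) for Col1a1, an 8.14-fold difference, and 2.16 (adjusted p = 0.00109, SE 0.23, n = 3 per group) for Col1a2, a 4.48-fold difference.

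Type III collagen, a homotrimer of Col3a1 chains that forms the finer fibres of liver and vessels, had the highest level per length of the fibrillar genes in the knockout-labelled libraries. Col3a1 had 2.76 ± 1.09 FPKM in the WT-labelled libraries and 23.1 ± 5.14 FPKM in the knockout-labelled libraries (SD, n = 3 each). Its CPM were 16.2, 10.7 and 24.0 against 142, 92.1 and 113, with no overlap and an edgeR log2 fold change of 2.77 (adjusted p = 0.00428, SE 0.35). In both groups replicate 2 was the lowest library for Col3a1.

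Type V collagen, which sits inside type I fibrils and sets their width, has 3 chain genes, all 3 higher, with log2 fold changes from 1.00 to 2.80. Col5a2 went from 2.10, 1.92 and 2.78 CPM to 15.7, 14.5 and 17.2 CPM, an edgeR log2 fold change of 2.80 (adjusted p = 2.66e-06, SE 0.16). It stands outside the rule for values per library and is shown because its ratio to Col5a1 was among the planned ratios. Col5a1 went from 7.12, 7.60 and 8.46 CPM to 22.4, 14.7 and 18.9 CPM, an edgeR log2 fold change of 1.27 (adjusted p = 0.000267, SE 0.16). Col5a3 went from 38.2, 27.9 and 45.9 CPM to 88.8, 70.7 and 64.0 CPM, an edgeR log2 fold change of 1.00 (adjusted p = 0.0137, SE 0.21). The groups did not overlap for any of the 3 genes. Without WT-labelled replicate 1, the adjusted p of Col5a3 was 0.0533 (edgeR), with a log2 fold change of 1.00. Col5a3 was the highest fibrillar gene of the WT-labelled libraries at 5.52 ± 1.36 FPKM, and Col5a2 the lowest of the 7 fibrillar genes above 0.2 FPKM, at 0.309 ± 0.062 FPKM.

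The remaining fibrillar genes did not pass or were not tested. Col27a1, whose product forms thin fibrils in cartilage, lay at 18.1, 14.0 and 14.6 CPM against 19.3, 13.8 and 12.7 CPM, with overlapping groups (edgeR log2 fold change -0.02, adjusted p = 0.926). Col11a2, a chain of cartilage type XI, had 14 to 16 counts per WT-labelled library and 14 to 21 counts per knockout-labelled library (edgeR log2 fold change -0.09, adjusted p = 0.848). The sign of both was positive with total-count scaling, at 0.27 and 0.20, and neither passed there. The cartilage genes Col2a1 and Col11a1 had 2 and 1 counts over the WT-labelled group and 0 and 1 over the knockout-labelled group. Col24a1 had 17 and 23 counts, a ratio of CPM of 1.08 with an exact 95% interval of 0.551 to 2.15 that covers counting error only.

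**Figure D2:**
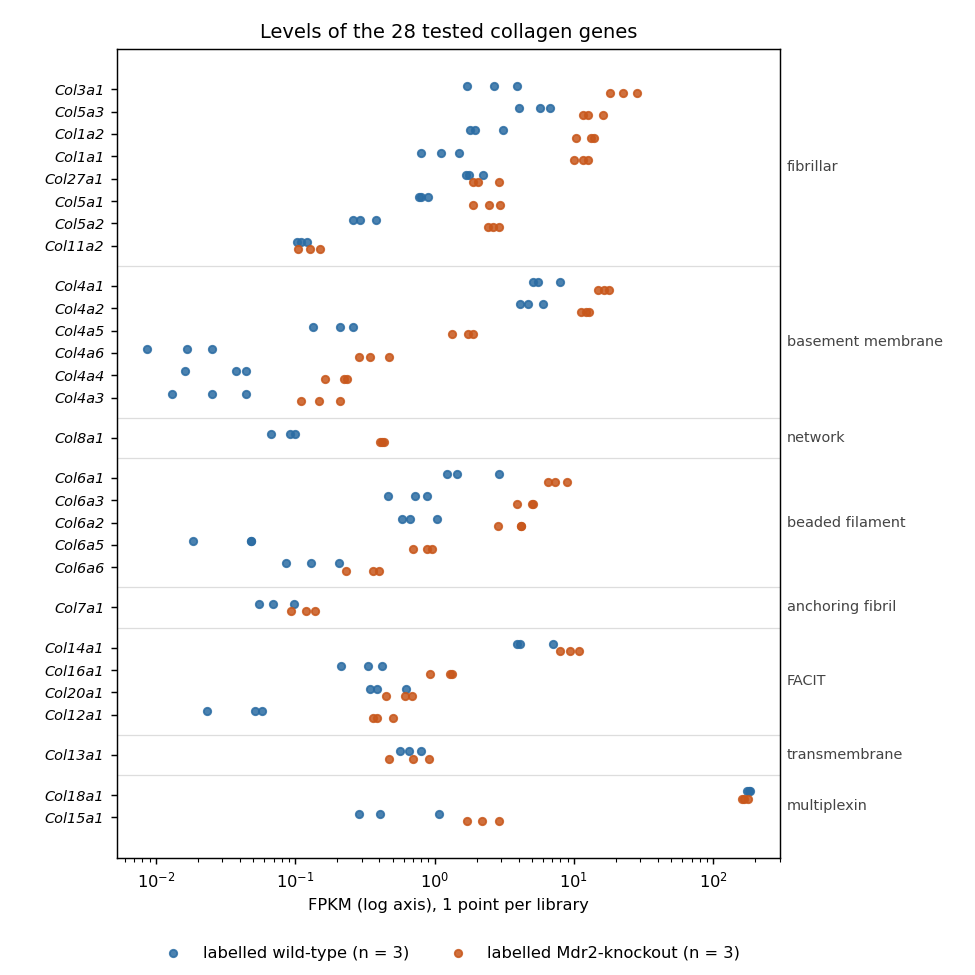
Level per gene length (FPKM, log axis) of the 28 tested collagen genes in each of the 6 libraries, with blue points for the 3 WT-labelled and orange points for the 3 knockout-labelled libraries. Col18a1 stands apart on the right at 160 to 183 FPKM, and no other gene exceeds 28.4 FPKM.

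The promoter of Col3a1, the most abundant fibrillar gene of the knockout-labelled libraries, is shown with the letters TATAAA, those of the TATA box motif, in capitals. The stretch ends just before the start of the gene on chromosome 1 (chr1:45311388-45311537, plus strand, GRCm38.p6, RefSeq). The letters begin at -117 from that start, and whether they act as a TATA box was not tested.
Col3a1: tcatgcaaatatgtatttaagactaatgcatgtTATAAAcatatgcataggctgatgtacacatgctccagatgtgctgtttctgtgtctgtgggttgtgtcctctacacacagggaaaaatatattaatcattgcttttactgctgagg
Col3a1 and Col5a2 are neighbours on chromosome 1 with a gap of 24614 bases between them, and their log2 fold changes were 2.77 and 2.80. Among 34 members with a RefSeq promoter (37 windows of 250 bases before the start, both strands), TATAAA occurred in 4 windows, or 10.8%, against 12.4% of all 32851 mouse windows. CCAAT occurred in 13 collagen windows, or 35.1%, against 33.9% of all windows. The GC box letters GGGCGG occurred in 22 collagen windows, or 59.5%, against 32.7% of all windows. Matches of different motifs can share bases, and a match describes the letters and no site of a factor.

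All 6 type IV genes were higher, with log2 fold changes of 1.00 and 1.11 for the major chains and 2.17 to 4.06 for the minor ones. Of the minor ones, Col4a3, Col4a4 and Col4a6 passed the filter on low counts through the knockout-labelled libraries, so a low value could hardly be seen for them. The major basement membrane chains come from Col4a1 and Col4a2. Col4a1 lay at 39.9, 38.1 and 58.2 CPM against 97.6, 89.7 and 107 CPM (edgeR log2 fold change 1.11, adjusted p = 0.00285, SE 0.17). Col4a2 lay at 28.7, 33.8 and 43.0 CPM against 70.2, 65.8 and 74.6 CPM (edgeR log2 fold change 1.00, adjusted p = 0.000947, SE 0.13). Labelled wild-type replicate 3 was the highest of its group for both, and still below each knockout-labelled library.

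Col4a5 and Col4a6 encode minor chains that assemble together in some epithelial and muscle basement membranes. Col4a5 had 0.954, 1.53 and 1.89 CPM in the WT-labelled and 11.2, 7.91 and 10.3 CPM in the knockout-labelled libraries, an edgeR log2 fold change of 2.74 (adjusted p = 3.17e-05, SE 0.24). Col4a6 had 0.0636, 0.192 and 0.126 CPM, or 1, 3 and 2 counts, against 2.08, 1.76 and 2.86 CPM, or 42, 35 and 55 counts. Its edgeR log2 fold change was 4.06 (adjusted p = 0.000141, SE 0.46), the second highest of the family. Col4a3 and Col4a4, the partners of Col4a5 in the kidney's filtration barrier, had 2 to 8 counts per WT-labelled library and 17 to 45 counts per knockout-labelled library. Their log2 fold changes were 2.17 (edgeR adjusted p = 0.00598) and 2.36 (edgeR adjusted p = 0.00118).

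Per gene length, the minor chains remained below Col4a1 in both groups. The ratio of Col4a5 to Col4a1 in FPKM was 0.0325 ± 0.00826 in the WT-labelled and 0.101 ± 0.0136 in the knockout-labelled libraries (SD, n = 3 each). That of Col4a6 to Col4a1 was 0.00287 ± 0.0018 against 0.0221 ± 0.00362. For Col4a3 it was 0.0043 ± 0.00172 against 0.00959 ± 0.00334, and for Col4a4 it was 0.00527 ± 0.00245 against 0.0128 ± 0.00339. The groups did not overlap for any of these 4 ratios, which were chosen after the values were seen and were not tested.

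The 6 type IV genes lie in 3 pairs that start next to each other and run in opposite directions, so the sequence between the starts is shown for the pairs with a gap. On chromosome 8, the annotated ends of Col4a1 and Col4a2 overlap by 22 bases (GRCm38, GENCODE), and reads there could be counted for either gene. On chromosome 1, 71 bases separate Col4a3 from Col4a4 (chr1:82586850-82586920, read on the minus strand, towards Col4a4), and none of the 3 motifs occurs in them. On chromosome X, 1308 bases separate Col4a5 from Col4a6. The 150 bases before the annotated start of each are chrX:141475235-141475384 on the plus strand for Col4a5 and chrX:141474077-141474226 on the minus strand for Col4a6, where capitals mark the GC box letters as they read on the opposite strand.
Col4a4 and Col4a3: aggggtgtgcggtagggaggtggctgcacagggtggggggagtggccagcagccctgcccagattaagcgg
Col4a5: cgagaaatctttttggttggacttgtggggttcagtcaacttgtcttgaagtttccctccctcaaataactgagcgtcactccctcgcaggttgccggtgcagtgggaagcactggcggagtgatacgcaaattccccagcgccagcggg
Col4a6: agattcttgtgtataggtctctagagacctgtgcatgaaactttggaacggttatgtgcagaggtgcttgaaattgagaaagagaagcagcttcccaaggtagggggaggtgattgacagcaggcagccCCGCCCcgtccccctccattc
Within a pair the log2 fold changes were 1.11 and 1.00 for Col4a1 and Col4a2, 2.17 and 2.36 for Col4a3 and Col4a4, and 2.74 and 4.06 for Col4a5 and Col4a6. Sequences are from RefSeq (GRCm38.p6). The stretch shown for Col4a5 ends 34 bases before its RefSeq start, from which the motif window was counted. That window holds the GC box letters at -30 and CCAAT at -196, both outside the stretch shown.

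Of the network-forming class, Col8a1 and Col8a2 were in the table. Col8a1, a type VIII chain of vessel walls and the cornea, had 0.509, 0.383 and 0.568 CPM against 1.98, 1.96 and 1.87 CPM, with no overlap (edgeR log2 fold change 1.98, adjusted p = 0.00096, SE 0.31). Col8a2 was not tested and had 13 counts over the WT-labelled and 31 over the knockout-labelled libraries, a ratio of CPM of 1.90 with an exact 95% interval of 0.966 to 3.96. Col10a1 is not analysed here.

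Type VI collagen forms beaded filaments that link cells to fibres, and its core trimer holds Col6a1, Col6a2 and 1 of the longer chains. Col6a1 lay at 6.29, 5.49 and 12.7 CPM against 26.3, 23.7 and 32.1 CPM (edgeR log2 fold change 1.74, adjusted p = 0.0111, SE 0.33). Col6a2 lay at 4.32, 3.96 and 7.004 CPM against 22.4, 15.5 and 22.6 CPM (edgeR log2 fold change 1.98, adjusted p = 0.000632, SE 0.24). Col6a3, the usual long chain, lay at 8.46, 5.68 and 10.5 CPM against 49.8, 38.3 and 48.6 CPM (edgeR log2 fold change 2.47, adjusted p = 0.000282, SE 0.21). For these 3 genes WT-labelled replicate 3 was the highest and replicate 2 the lowest of the group, and the groups did not overlap.

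The largest log2 fold change among the tested members was that of Col6a5, an alternative long chain of type VI. It had 0.191, 0.511 and 0.505 CPM, or 3, 8 and 8 counts, in the WT-labelled and 6.002, 7.65 and 8.21 CPM, or 121, 152 and 158 counts, in the knockout-labelled libraries. The edgeR log2 fold change was 4.16 (adjusted p = 9.75e-06, SE 0.30), a 17.8-fold difference. Per gene length, Col6a5 stood at 0.061 ± 0.0388 of Col6a3 in the WT-labelled and at 0.186 ± 0.0457 in the knockout-labelled libraries (SD, n = 3 each). This ratio was chosen after the values were seen and was not tested.

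Because Col6a5 had the largest difference, the 150 bases before its start on chromosome 9 are shown (chr9:105960644-105960793, minus strand, GRCm38.p6, RefSeq), with the GC box letters in capitals.
Col6a5: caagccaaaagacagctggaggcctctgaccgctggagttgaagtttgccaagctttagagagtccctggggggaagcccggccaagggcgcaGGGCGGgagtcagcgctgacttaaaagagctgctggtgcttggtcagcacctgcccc
Its neighbours on the same strand, Col6a6 and Col6a4, encode the other alternative long chains and lie 27917 and 28810 bases away. Col6a6 had 11 to 27 counts per WT-labelled and 31 to 52 counts per knockout-labelled library. Its groups overlapped in CPM (edgeR log2 fold change 0.93, adjusted p = 0.0643, SE 0.36). It passed without WT-labelled replicate 2, at a log2 fold change of 1.31 (edgeR adjusted p = 0.034), without knockout-labelled replicate 2, at 1.13 (edgeR adjusted p = 0.048), and with total-count scaling, at 1.23 (edgeR adjusted p = 0.0151). Col6a4 had 0 counts over the WT-labelled and 2 over the knockout-labelled libraries, at or under the floor of 3 counts.

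Col7a1, the chain of the anchoring fibrils that fasten epithelium to the tissue below, lay at 0.699, 1.02 and 0.568 CPM against 0.992, 1.16 and 0.779 CPM. The groups overlapped, and the gene did not pass (edgeR log2 fold change 0.36, adjusted p = 0.467, SE 0.36).

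Among the FACIT collagens, which coat fibrils and link them to their surroundings, Col12a1 and Col16a1 were higher. Col12a1, known from tendon and healing wounds, had 0.763, 0.702 and 0.315 CPM against 3.97, 4.33 and 5.51 CPM (edgeR log2 fold change 2.94, adjusted p = 0.000101, SE 0.31). Col16a1 had 1.46, 2.36 and 2.97 CPM against 7.64, 5.34 and 7.33 CPM (edgeR log2 fold change 1.58, adjusted p = 0.0011, SE 0.25). The groups did not overlap for either gene.

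Col14a1, whose product sits on type I fibrils, was the FACIT gene with the highest level, at 5.02 ± 1.75 FPKM in the WT-labelled and 9.42 ± 1.46 FPKM in the knockout-labelled libraries. Its CPM were 31.9, 31.0 and 55.5 against 69.6, 51.7 and 60.1. Labelled wild-type replicate 3 lay above knockout-labelled replicate 2, and the gene did not pass (edgeR log2 fold change 0.61, adjusted p = 0.136, SE 0.27). Without WT-labelled replicate 3 the log2 fold change was 0.93 (edgeR adjusted p = 0.000469). Col14a1 passed with DESeq2, at 0.60 (DESeq2 adjusted p = 0.012), and with total-count scaling, at 0.91 (edgeR adjusted p = 0.0405).

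Col20a1 lay at 2.35, 4.47 and 2.71 CPM against 3.47, 2.57 and 3.95 CPM with overlapping groups (edgeR log2 fold change 0.07, adjusted p = 0.873, SE 0.27). The sign of this value was not the same under every alternative, and it passed under none of them. The cartilage genes Col9a1 and Col9a2 had 0 counts over the WT-labelled and 3 each over the knockout-labelled libraries, and Col9a3 had 9 and 13. Col19a1 had 5 and 2 counts, and Col22a1 had 1 and 1. No fold is given for counts at or under the floor of 3 in both groups, and the exact 95% interval of the ratio was 0.455 to 3.05 for Col9a3 and 0.0304 to 1.95 for Col19a1. Col21a1 is not analysed here.

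Of the transmembrane collagens, which span the cell membrane, only Col13a1 was tested. It lay at 4.58, 5.75 and 4.04 CPM against 2.73, 4.13 and 5.30 CPM, with overlapping groups (edgeR log2 fold change -0.24, adjusted p = 0.475, SE 0.25). With total-count scaling its log2 fold change was 0.05. Col23a1 was not tested and had 4, 5 and 7 counts against 21, 9 and 23 counts. Its ratio of CPM was 2.64, with an exact 95% interval of 1.49 to 4.95 for counting error only, and the groups did not overlap in CPM. Without a filter on low counts its edgeR adjusted p was 0.0608, and without knockout-labelled replicate 2, the lowest of its group, it entered the test and passed (edgeR log2 fold change 1.70, adjusted p = 0.0198). It also entered without WT-labelled replicate 1, 2 or 3, and did not pass (edgeR adjusted p of 0.14, 0.127 and 0.0635). Col25a1 had 11 and 22 counts over the groups, a ratio of 1.59 (exact 95% interval 0.741 to 3.64). Col17a1, the collagen of the skin's hemidesmosomes, had 2 and 1 counts.

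Col18a1, a multiplexin of basement membranes whose cleaved end is endostatin, was the most abundant collagen gene of both groups and the only lower member. It lay at 1370.4, 1483 and 1441 CPM in the WT-labelled and at 1150.4, 1087 and 1044 CPM in the knockout-labelled libraries. Each knockout-labelled library was below each WT-labelled library, with an edgeR log2 fold change of -0.39 (adjusted p = 0.00459, SE 0.08). With total-count scaling, which raises the median of all genes by 0.29 on the log2 scale, its log2 fold change was -0.09 and it did not pass (edgeR adjusted p = 0.357). In FPKM, which are scaled by total counts, it had 179 ± 4.09 in the WT-labelled and 168 ± 8.74 in the knockout-labelled libraries (SD, n = 3 each). Among the 8 hepatocyte markers, 6 were lower like Col18a1, 0 were higher and 2 did not pass. Among all tested genes 16.3% were lower and 20.9% higher. The lower ones were the cytochrome Cyp2e1 (log2 fold change -1.55), the plasma protein genes Ttr (-0.83), Alb (-0.79) and Serpina1a (-0.52), and the lipoprotein genes Apoa2 (-0.74) and Apoa1 (-0.48). Cps1, of the urea cycle (0.05), and Tat, which breaks down tyrosine (-0.62), did not pass. With total-count scaling Apoa1 did not pass (-0.19), and 1 of the 8 markers was higher. The part of these markers in the Col18a1 result was not tested.

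The related Col15a1, also a basement membrane multiplexin, had 2.35, 6.45 and 1.70 CPM against 13.9, 8.21 and 10.5 CPM. The groups did not overlap, yet the gene missed the threshold (edgeR log2 fold change 1.64, adjusted p = 0.0511, SE 0.50). Labelled wild-type replicate 2 stood above the others of its group, and without it the log2 fold change was 2.41 (edgeR adjusted p = 0.000886). Col15a1 also passed with DESeq2 at an adjusted p of 0.0251, limma-voom at 0.0242, and edgeR with total-count scaling at 0.0235, upper-quartile scaling at 0.048 and the stricter filter at 0.0499.

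Col28a1, a collagen of nerve sheaths that belongs to none of these classes, was not tested, with 5 counts over the WT-labelled and 31 over the knockout-labelled libraries. Its ratio of CPM was 4.94 (exact 95% interval 1.91 to 16.3, counting error only). The groups did not overlap, and without a filter on low counts its edgeR adjusted p was 0.0496. It entered the test and passed without WT-labelled replicate 2 (edgeR adjusted p = 0.0278) or knockout-labelled replicate 2 (edgeR adjusted p = 0.0419), and entered without passing when WT-labelled replicate 1 or 3 was left out. Col26a1 is not analysed here.

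Together the 42 genes summed to 216 ± 9.29 FPKM in the WT-labelled and 299 ± 22.7 FPKM in the knockout-labelled libraries (SD, n = 3 each). Without Col18a1 the sums were 37.2 ± 8.45 and 132 ± 16.8 FPKM, a ratio of 3.54. The fibrillar sum went from 14.9 ± 3.58 to 68.0 ± 11.1 FPKM, a ratio of 4.57. The basement membrane sum went from 11.4 ± 2.51 to 30.8 ± 2.59 FPKM, a ratio of 2.71. The beaded filament sum went from 3.49 ± 1.31 to 17.2 ± 2.57 FPKM, a ratio of 4.93, and the FACIT sum from 5.90 ± 1.81 to 11.7 ± 1.69 FPKM, a ratio of 1.99. The transmembrane sum was 0.754 ± 0.103 and 0.916 ± 0.267 FPKM, with a ratio of 1.21, and its groups overlapped. These ratios carry the total-count scaling of the FPKM and lie above the TMM-scaled folds by the shift of 0.29 on the log2 scale given for Col18a1.

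Shares of the collagen total do not depend on that scaling. Col18a1 and Col15a1 together held 84.0%, 86.0% and 79.5% of collagen FPKM in the WT-labelled libraries and 55.7%, 60.0% and 55.0% in the knockout-labelled libraries. The fibrillar share was 7.16%, 5.26% and 8.12% against 24.6%, 20.7% and 22.5%. The basement membrane share was 4.71%, 4.70% and 6.30% against 9.63%, 10.1% and 11.2%. Beaded filament genes held 1.60% ± 0.533 against 5.73% ± 0.744, and FACIT genes 2.70% ± 0.708 against 3.90% ± 0.307 (SD, n = 3 each). The share of the multiplexins was lower, and that of each of these other 4 classes higher, in every knockout-labelled library than in any WT-labelled library. Shares of the same total are bound to each other, so these differences, here and below, are not separate observations.

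Leaving Col18a1 out, the balance among the other 41 genes differed as well. The fibrillar share was 44.1%, 36.3% and 39.3% in the WT-labelled and 54.5%, 51.0% and 49.1% in the knockout-labelled libraries. The beaded filament share was 9.17% ± 1.30 against 13.0% ± 1.18. In the other direction, the basement membrane share was 29.1%, 32.5% and 30.5% against 21.3%, 24.8% and 24.5%, and the FACIT share was 14.1%, 16.0% and 17.05% against 9.03%, 8.73% and 8.91%. The transmembrane share was 2.12% ± 0.679 against 0.701% ± 0.201. None of these 5 shares overlapped between the groups, and no test was made of them.

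**Figure D3:**
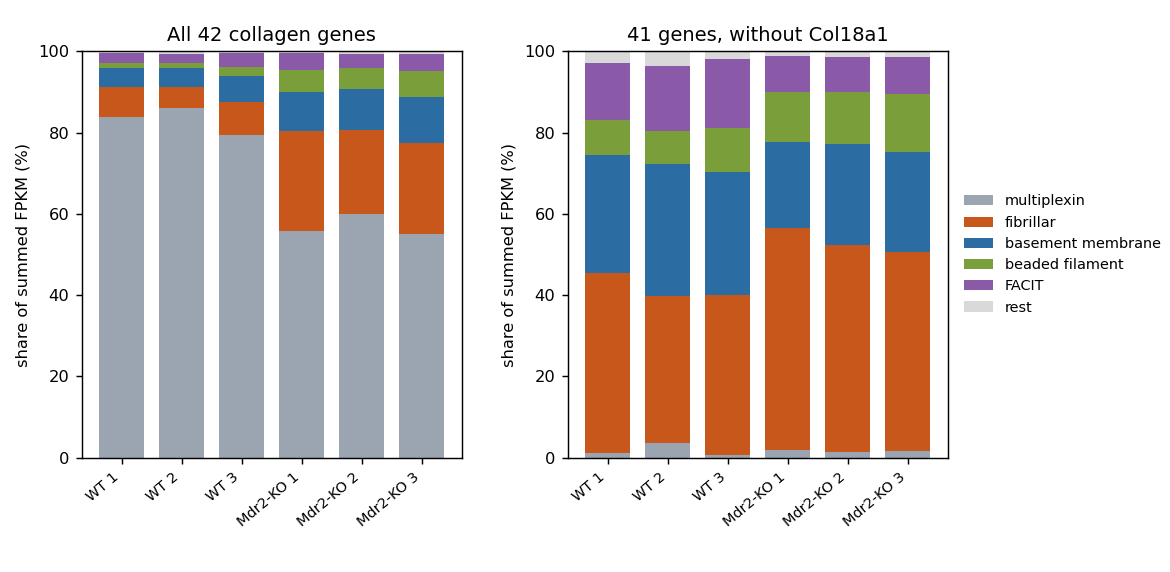
Share of summed collagen FPKM (percent) held by each class in each of the 6 libraries, over all 42 genes on the left and over the 41 genes other than Col18a1 on the right. On the left the multiplexin share is 79.5% to 86.0% in the WT-labelled and 55.0% to 60.0% in the knockout-labelled libraries, and on the right the fibrillar share rises above the WT-labelled range in all 3 knockout-labelled libraries.

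The order of the most abundant genes per length differed in part. After Col18a1, the WT-labelled libraries had Col4a1 (6.19 ± 1.51 FPKM), Col5a3 (5.52 ± 1.36), Col14a1 (5.02 ± 1.75) and Col4a2 (4.92 ± 0.98), each differing from the next by less than either SD. In the knockout-labelled libraries the order after Col18a1 was Col3a1 (23.1 ± 5.14 FPKM), Col4a1 (16.4 ± 1.51), Col5a3 (13.5 ± 2.38), Col1a2 (12.5 ± 1.96), Col4a2 (12.04 ± 0.815) and Col1a1 (11.4 ± 1.28). From Col5a3 to Col1a1 each mean differed from the next by less than either SD. Col1a1 held rank 10 in the WT-labelled and rank 7 in the knockout-labelled libraries.

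Ratios between chains of types I, IV, V and VI, and of Col3a1 to Col1a1, whose chains form separate trimers, were compared over the 6 libraries with two-sided exact permutation tests, for which 3 libraries against 3 cannot give a p below 0.1. The type I ratio of Col1a1 to Col1a2 was 0.575, 0.446 and 0.487 in the WT-labelled and 0.898, 0.973 and 0.873 in the knockout-labelled libraries (exact p = 0.1, adjusted over the 5 planned ratios 0.25). The type V ratio of Col5a1 to Col5a2 was 2.64, 3.08 and 2.37 against 1.11, 0.785 and 0.852 (exact p = 0.1, adjusted 0.25). For both ratios the groups did not overlap. No such separation was seen for the other 3: Col3a1 to Col1a1 was 2.37 ± 0.229 against 2.01 ± 0.231 (exact p = 0.2), Col4a1 to Col4a2 was 1.26 ± 0.139 against 1.36 ± 0.034 (exact p = 0.2), and Col6a1 to Col6a2 was 2.35 ± 0.352 against 2.08 ± 0.275 (exact p = 0.5). Lengths enter these FPKM ratios, so their size rests on the authors' gene models. The fold between groups in a ratio does not depend on the lengths.

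**Figure D4:**
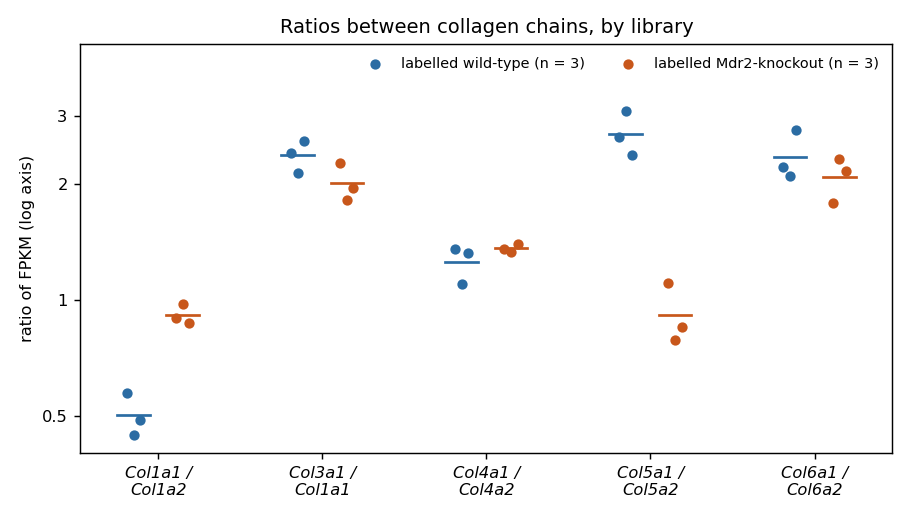
Ratio of FPKM between collagen chains (log axis) in each library, with points for libraries, blue for WT-labelled and orange for knockout-labelled, and lines for the means of 3. The type I ratio moves from a mean of 0.503 to 0.915 and the type V ratio from 2.69 to 0.914, and the groups overlap for the other 3 ratios.

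Single libraries moved with these results. For 15 of the 19 higher members WT-labelled replicate 3 had the highest CPM of its group, against 35.1% of all tested genes, and for 13 of the 19 knockout-labelled replicate 2 had the lowest, against 33.7%. The summed CPM of 10 stellate cell markers was 237, 256 and 366 in WT-labelled replicates 1 to 3 and 396, 334 and 395 in knockout-labelled replicates 1 to 3, so the same 2 libraries were the highest and the lowest of their groups. Without WT-labelled replicate 3, 20 members were higher, and without knockout-labelled replicate 2, 22 were higher.

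Marker genes of several cell types differed beside the collagens, and the counts of the lists here and below stand beside 20.9% higher and 16.3% lower among all tested genes. Of 10 tested stellate cell markers 4 were higher, 0 lower and 6 did not pass. The higher ones were Pdgfrb, the receptor for platelet-derived growth factor B (edgeR log2 fold change 1.53, adjusted p = 5.05e-05), Rgs5 (1.16), Hand2 (0.58) and the filament gene Des (0.61). Hhip had a log2 fold change of -0.80 with groups that did not overlap (edgeR adjusted p = 0.0538), and was lower with limma-voom, without a filter and without WT-labelled replicate 1. Of 10 tested markers of portal fibroblasts and myofibroblasts 7 were higher, 0 lower and 3 did not pass, led by Dpt (2.20), Entpd2 (1.74), Mfap4 (2.31) and Cd34 (2.43), and their summed level was 37.6 to 46.1 CPM against 77.3 to 96.9 CPM. Acta2, the smooth muscle actin of myofibroblasts, did not pass (0.31, edgeR adjusted p = 0.704). Gas1 had a log2 fold change of -0.33 with groups that did not overlap (edgeR adjusted p = 0.0549), and was lower with RLE scaling, limma-voom, no filter and without knockout-labelled replicate 1. All 8 bile duct cell markers were higher, led by Epcam (3.41), Krt19 (3.53), Cldn4 (5.76) and Cftr (7.07). The summed level of the 8 was 41.7 to 57.5 CPM against 337 to 374 CPM. Spp1 alone held 28.5 to 45.6 and 272 to 310 CPM of it. In the WT-labelled libraries Cldn4 had 2, 2 and 0 counts and Cftr 0, 1 and 0. Krt7, Tspan8 and the portal fibroblast marker Thy1 also had fewer than 10 counts in at least 1 WT-labelled library. These genes passed the filter on low counts through the knockout-labelled libraries, so they could hardly be called anything but higher. Their values stand in the list medians.

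Of 6 sinusoidal endothelial markers 1 was higher (Stab2, 0.29) and 3 were lower (Oit3 at -0.54, Kdr at -0.36 and Clec4g at -0.39). With total-count scaling Kdr and Clec4g did not pass, and of the 6 markers 2 were higher and 1 lower. Of 3 tested smooth muscle markers 2 were higher, Des and Smtn (0.62), and Myh11 did not pass (0.20). Leaving out 1 library ended the call of Stab2 (without WT-labelled replicate 1 or 2, or knockout-labelled replicate 1 or 3), of Des (without WT-labelled replicate 1 or 2, or knockout-labelled replicate 3) and of Smtn (without WT-labelled replicate 1 or knockout-labelled replicate 2). The median log2 fold change was 0.48 over the stellate, 1.41 over the portal fibroblast, 3.52 over the bile duct, -0.26 over the endothelial and 0.61 over the smooth muscle markers. No marker of these lists was at 0 in all libraries of a group. The part of these cell types in the collagen results was not tested.

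Of 18 tested enzymes and chaperones that fold and modify collagen chains in the endoplasmic reticulum, 7 were higher, 2 lower and 9 did not pass, and the median log2 fold change was 0.44. Serpinh1, the collagen chaperone Hsp47, went from 6.89 ± 1.64 to 17.5 ± 2.34 CPM (edgeR log2 fold change 1.34, adjusted p = 0.000341, SE 0.17, n = 3 per group). Fkbp10, a prolyl isomerase, had a log2 fold change of 1.85, and Colgalt1, which adds galactose to hydroxylysine, of 0.38. Plod2, also higher, had 11, 8 and 14 counts in the WT-labelled libraries. It passed the filter on low counts through the knockout-labelled libraries, so it could hardly be called anything but higher. Lower were Mia3, which helps load procollagen for export (-0.45, edgeR adjusted p = 0.00133), and the lysyl hydroxylase Plod1 (-0.20, edgeR adjusted p = 0.0492). With total-count scaling neither was lower by the test, and the Plod1 value was 0.09. Plod1 also missed the threshold when any library but WT-labelled replicate 1 was left out (edgeR adjusted p from 0.0688 to 0.141).

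Of 11 tested genes for trimming of procollagen and crosslinking of fibres, 6 were higher, 1 lower and 4 did not pass (median log2 fold change 0.81). Of the higher ones, Lox had 1, 7 and 10 counts in the WT-labelled libraries. It passed the filter on low counts through the knockout-labelled libraries, so it could hardly be called anything but higher. The lysyl oxidase relatives Loxl1 and Loxl2, which crosslink fibres, had log2 fold changes of 2.60 and 1.86 (edgeR adjusted p = 2.46e-05 and 0.00017). Adamts2, which removes the amino-terminal propeptide, went from 5.99 ± 0.992 to 17.3 ± 2.03 CPM (1.53), and Pcolce, the enhancer of carboxyl-terminal trimming, from 3.13 ± 1.06 to 11.8 ± 1.73 CPM (1.91). Bmp1, the protease that Pcolce enhances, was lower, from 209 ± 11.9 to 139 ± 8.08 CPM (-0.59, edgeR adjusted p = 0.00038).

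Of 8 tested collagen receptors 4 were higher, 0 lower and 4 did not pass (median log2 fold change 1.22). Ddr1, a receptor tyrosine kinase of epithelial cells, went from 1.93 ± 0.554 to 17.7 ± 0.972 CPM (edgeR log2 fold change 3.19, adjusted p = 2.11e-06), and its relative Ddr2, known from mesenchymal cells, from 4.89 ± 1.43 to 11.6 ± 2.09 CPM (1.24). Mrc2, which takes up collagen fragments, had a log2 fold change of 2.29 and the immune inhibitory receptor Lair1 of 1.21. The median over 5 tested collagen-degrading enzymes was 2.20, and 4 were higher and 0 lower: the gelatinase Mmp2 (2.48, edgeR adjusted p = 3.74e-06), the collagenase Mmp13 (3.52), cathepsin K, Ctsk (2.20), and the membrane-bound Mmp14 (0.71). Mmp9 did not pass (0.88, edgeR adjusted p = 0.117). In the WT-labelled libraries Mmp13 had 3, 1 and 0 counts and Ctsk 4, 8 and 9. Both passed the filter on low counts through the knockout-labelled libraries, so they could hardly be called anything but higher. The median of 2.20 is the value of Ctsk.

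Counts of a few members could include reads of overlapping genes, since the sources used here do not give the strand setting. In GENCODE M21, 22 bases of Col4a1 and Col4a2 overlap each other, and no other member shares exon bases with another gene of the table. Overlaps with genes outside the table reached 6.07% of the exon bases of Col9a3 and 5.65% of those of Col4a3.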

How the data were processed

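RNA-seq of liver gave 3 libraries per group. The authors deposited whole-number counts per gene symbol and FPKM of the same genes. The deposited FPKM were proportional to the counts within each gene and scaled by library totals. Per the submitters' processing notes, the build was mm10 and the tools were HISAT2, Bowtie2, HTSeq, StringTie, Cufflinks, SAMtools, Trimmomatic and DESeq, named without versions or strand setting. Columns lettered M were read as Mdr2-knockout and those lettered N as wild-type by elimination, with 0 columns unused.

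The count model was edgeR 4.0.16 (R 4.3.3), fitted over all genes (filterByExpr, minimum count 10 and minimum total 15, TMM factors, robust quasi-likelihood, group as the only term). Benjamini-Hochberg adjustment ran over the 12612 tested genes at a threshold of 0.05. SE were derived from the F statistic. A count of 3 in 1 library equals 0.149 to 0.192 CPM. Alternatives were DESeq2 1.42.0, limma-voom (limma 3.58.1), scaling by RLE, upper quartile or total count, other filters (none, or at least 1 CPM in 3 libraries), the replicate number as a block and leaving out each library. The pipeline was tested on simulated data.

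The collagen members, classes, pathway lists and marker lists were chosen with earlier results of these data known. By rule, values per library were given for the tested members with the highest mean FPKM (up to 6 fibrillar, up to 4 in each other class). Of each pathway or marker list the 4 genes with the smallest p and each lower gene were named. Acta2, Cps1, Gas1, Hhip, Krt7, Lox, Mmp9, Myh11, Plod2, Spp1, Tat, Thy1 and Tspan8 were chosen after their values were seen. No label says that replicate numbers pair the samples, and the main fit took them as unpaired. Deviations from the group means of same-numbered libraries correlated at 0.08, 0.04 and -0.08 across genes, which cannot exclude a pairing. No 2 libraries of a group agreed within counting noise (the lowest chi-square divided by its degrees of freedom was 14.03). Promoter sequences are from RefSeq, GRCm38.p6, and positions from GENCODE M21.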

Additional observations from a re-analysis of the deposited data

How the results depend on the processing

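The count of higher members was 18 to 22 over all alternatives, and with the replicate number as a block it was 19, with 1 lower, as without the block. With total-count scaling 0 members were lower. The fibrillar, basement membrane, network, beaded filament and FACIT counts stayed within 1.5 times under every alternative. Of the multiplexins 1 was higher with upper-quartile scaling, total-count scaling, DESeq2, limma-voom and the filter at 1 CPM, and 0 to 1 when 1 library was left out. The transmembrane count was 0 to 1 when 1 library was left out, as was that of Col28a1, which was also 1 without a filter. Of the alternatives for pathway lists and marker lists, chosen after seeing the data, total-count scaling gave 11 higher and 0 lower genes of collagen maturation and 7 higher receptors. Upper-quartile scaling, DESeq2, limma-voom and the filter at 1 CPM gave 1 lower gene of collagen maturation, as Plod1 no longer passed, and leaving out 1 library gave 1 to 3. Plod1 had the opposite sign, a log2 fold change of 0.0893, with total-count scaling. By counts in place of FPKM, the shares in the knockout-labelled libraries were 19.6% for fibrillar and 60.2% for multiplexin genes, and without Col18a1 48.5% for fibrillar and 10.1% for FACIT genes. Over members with at least 1 FPKM, the FACIT share was 3.22%, or 7.59% without Col18a1, where the fibrillar share was 54.6%. A pseudocount of 0.1 FPKM gave a WT-labelled ratio of Col5a1 to Col5a2 of 2.27. The reading of the lettered columns limits every direction. Some members with few counts in the WT-labelled libraries, such as Col4a6 and Col4a3, had wide errors (SE 0.46 and 0.48). For the 14 untested members a difference was often not detectable at this depth.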
